A study of Mus musculus with 30 samples.

Results

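Genes of the extracellular matrix and of its integrin receptors were followed in 2 mouse spermatogonial stem cell (SSC) lines. They were chosen by symbol, with earlier results of these data known. The rule took every gene of the RNA-seq table named as a collagen, laminin, integrin, Timp, Mmp, fibrillin or fibulin. *Fn1*, *Sparc*, *Lox* and *Nid1* were taken as well. This gave 73 of the 13904 genes that had an expression value, and 21 of them were among the 5806 transcripts that also had an mRNA half-life. The 73 genes included 28 collagen chains, 13 integrin chains, 11 matrix metalloproteinases and 10 laminin and nidogen genes.

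The extracellular matrix is the network of secreted proteins on which cells rest. Basement membranes, the sheets beneath epithelia and around the seminiferous tubule, are built from laminins and type IV collagen linked by nidogen, whereas fibroblasts lay down fibrillar collagens, fibronectin and fibulins. Integrins are pairs of an alpha and a beta chain that hold cells to these proteins, and SSCs are known for displaying the laminin receptor made of the alpha 6 and beta 1 chains. SSC lines are grown on a layer of mouse embryonic fibroblasts called feeders, which also make matrix.

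SSC lines are cultures of the germ cells that sustain spermatogenesis, derived here from testes at postnatal day 7 on a mixed C57BL/6 and DBA/2J background. Line 4 carries 1 copy (*Nanos2* TAG/+) and line 5 carries 2 copies (*Nanos2* TAG/TAG) of a *Nanos2* allele that encodes the RNA-binding protein NANOS2 fused to a tag with V5, Myc, His and EGFP parts. Neither line is a loss of NANOS2, and each genotype is represented by 1 line. RNA-seq was done on 1 library of ribosomal RNA-depleted total RNA per line. For SLAM-seq, RNA was labelled with 4-thiouridine (4SU) and chased for 0, 30, 60, 120, 540 and 1440 min in 12 libraries per line, from which the authors fitted 1 half-life for each transcript in each line. The labels describe depletion of feeders before RNA extraction, with QIAzol for the RNA-seq library of the TAG/+ line and Trizol for that of the TAG/TAG line, whereas the methods describe sorted SSCs and QIAzol. Genotype, cell line and extraction reagent therefore cannot be told apart in any difference between the RNA-seq libraries, and no difference has a replicate check or a p-value. The genotype of each expression column and half-life table was read from its name. The sample labels call the half-life tables CTL for the TAG/+ line and EXP for the TAG/TAG line. In the paper, CTL otherwise stands for wild type *Nanos2*.

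FPKM scales reads to transcript length and library depth. The length that gave whole reads here was the mean over all annotated transcripts of a gene. Levels compared or summed between genes therefore depend on that annotation, whereas the fold of 1 gene between the lines does not. For example, *Col4a1* and *Col4a2* had mean lengths of 2141 and 2712 bases, and 419 and 288 reads in the TAG/+ library. Whole reads were recovered from FPKM for 100% of 13867 genes, within 0.01 of a whole number, and summed to 10931439 in the TAG/+ library and 11627842 in the TAG/TAG library. Each fold between the lines below is the ratio of their FPKM and is followed by its 95% interval from the reads (Clopper-Pearson), which covers counting error only. A gene was counted as higher in a line when log2(FPKM + 0.1) differed by at least 1, which is 2-fold, among genes with a mean FPKM of at least 1. In bulk RNA, fewer cells of a type and less RNA per cell cannot be told apart.

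Most matrix and integrin genes had low levels, and a few secreted proteins made up most of their RNA. Median FPKM of the 73 genes was 2.10 in the TAG/+ line and 3.57 in the TAG/TAG line, against 10.2 and 10.5 for all genes of the table. Their FPKM summed to 1113 in the TAG/+ line and 1650 in the TAG/TAG line, which is 0.138% and 0.216% of the summed FPKM of all genes. Fibronectin (*Fn1*), the glycoprotein that links cells to collagen, alone gave 22.8% and 17.0% of these sums, and the 5 highest genes gave 52.9% and 52.8%. In the TAG/+ line these 5 were *Fn1*, *Fbln1*, *Lamb1*, *Sparc* and *Lamc1*, and in the TAG/TAG line *Nid1* took the place of *Lamc1*. Of recovered reads, 0.297% (95% interval 0.294 to 0.300) in the TAG/+ library and 0.418% (0.414 to 0.421) in the TAG/TAG library came from the 73 genes.

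The genes stood mostly higher in the TAG/TAG line. Of the 56 with a mean FPKM of at least 1, 19 (33.9%) were past 2-fold higher in the TAG/TAG line, where 11.7% of all 12546 genes past this limit were. Only *Col23a1* (1.79%) was past 2-fold higher in the TAG/+ line, against 8.67% of all genes. By any amount, 46 of the 56 (82.1%) were higher in the TAG/TAG line, against 49.8% of all genes. Without the limit this held for 58 of the 73, against 50.5% of all genes of the table. The median log2 difference was 0.55, and that of all genes was 0.00. Since 7 of the 56 were under 1 FPKM in the TAG/+ line and passed through their level in the TAG/TAG line, a limit in both lines was also tried. Of the 48 genes with an FPKM of at least 1 in both lines, 12 were then past 2-fold higher in the TAG/TAG line, against 7.94% of all genes under the same limit. None was past 2-fold higher in the TAG/+ line, against 6.52%, since *Col23a1*, under 1 FPKM in the TAG/TAG line, was left out by this limit.

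**Figure D1:**
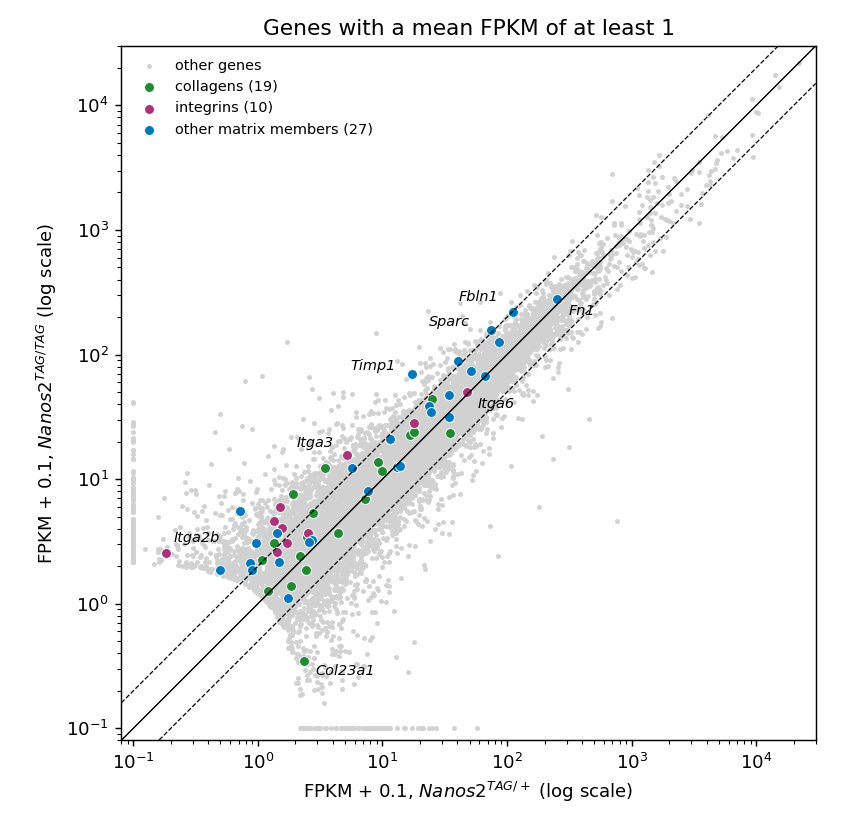
FPKM + 0.1 of each gene with a mean FPKM of at least 1 in the *Nanos2* TAG/+ line (x axis, log scale) and in the *Nanos2* TAG/TAG line (y axis, log scale). Coloured points are the 19 collagens, 10 integrins and 27 other matrix genes and grey points all other genes, with a solid line at equal level and dashed lines at 2-fold. Of the coloured points, 19 lie at or above the upper dashed line and only *Col23a1* lies below the lower one.

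Fibronectin differed little between the lines, whereas *Sparc* and *Lox* were higher in the TAG/TAG line. *Fn1* (chromosome 1, 71585520 to 71653200, GRCm38) stood at an FPKM of 254 in the TAG/+ line and 280 in the TAG/TAG line, a fold of 1.1 (1.08 to 1.13). *Sparc* (chromosome 11, 55394500 to 55423183), which encodes the collagen-binding protein osteonectin, had 73.9 and 158, a fold of 2.14 (1.99 to 2.30). *Lox*, the lysyl oxidase that cross-links collagen and elastin, had 5.57 and 12.1, a fold of 2.17 (1.88 to 2.51). The most abundant matrix mRNA thus differed little between the lines, while the other two stood about equally far apart.

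Fibulins are secreted glycoproteins that bind elastic fibres and basement membranes. *Fbln1* (chromosome 15, 85205949 to 85286535) had an FPKM of 111 in the TAG/+ line and 220 in the TAG/TAG line, a fold of 2.0 (1.90 to 2.09) that lay just under the limit with the pseudocount. *Fbln2* had 51.0 and 74.2, a fold of 1.46 (1.34 to 1.59). Fibrillin 1 (*Fbn1*), the backbone of microfibrils, had only 1.39 and 2.06, and *Fbln5* and *Fbln7* had a mean FPKM under 1.

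Of the basement membrane genes, the laminin chains of the common type were abundant in both lines. Laminin molecules hold 1 alpha, 1 beta and 1 gamma chain, and the chains of laminin-511 are encoded by *Lama5*, *Lamb1* and *Lamc1*. Their FPKM in the TAG/+ and TAG/TAG line was 33.9 and 47.5 for *Lama5*, a fold of 1.40 (1.3 to 1.51). For *Lamb1* (chromosome 12, 31265234 to 31329644) it was 85.3 and 125, a fold of 1.47 (1.39 to 1.55). For *Lamc1* (chromosome 1, 153218922 to 153332786) it was 65.8 and 67.7, a fold of 1.03 (0.961 to 1.1). The gamma chain therefore had no difference detectable at this depth while its alpha and beta partners were higher in the TAG/TAG line. *Lamb2*, an alternative beta chain, had 33.9 and 31.2, a fold of 0.919 (0.802 to 1.05).

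Laminin chains of low level differed by more. *Lamb3*, a beta chain of epithelial laminins, had an FPKM of 0.399 in the TAG/+ line from 8 reads and 1.76 in the TAG/TAG line from 38 reads, a fold of 4.41 (2.03 to 11). *Lama3*, an alpha chain of epithelial laminins, had 0.524 from 46 reads and 1.45 from 137 reads, a fold of 2.77 (1.97 to 3.95), and its mean was just under 1 FPKM. *Lama4*, the alpha chain of vascular and muscle laminins, had 1.32 and 3.59, a fold of 2.71 (1.86 to 4.03).

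Nidogen 1 and type IV collagen complete the basement membrane network. *Nid1* (chromosome 13, 13437551 to 13512269), the link between laminin and collagen IV, had an FPKM of 40.3 in the TAG/+ line and 87.9 in the TAG/TAG line, a fold of 2.18 (2.05 to 2.31). The collagen IV chain *Col4a1* had 17.9 and 24.0, a fold of 1.34 (1.18 to 1.52), and its partner *Col4a2* had 9.74 and 11.6, a fold of 1.19 (1.02 to 1.39). *Col4a1* stood at 1.84 times the level of *Col4a2* in the TAG/+ line and 2.07 times in the TAG/TAG line. *Col18a1*, a basement membrane collagen that is the source of endostatin, went the other way with 34.8 and 23.4, a fold of 0.672 (0.617 to 0.732). It was the only gene with a mean FPKM of at least 5 whose whole interval lay below 1.

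The fibrillar collagens, which mark fibroblasts, did not move as 1 group. *Col1a1* (chromosome 11, 94936224 to 94953042) had an FPKM of 25 in the TAG/+ line and 43.9 in the TAG/TAG line, a fold of 1.76 (1.57 to 1.97). Its partner in type I collagen, *Col1a2*, had 9.17 and 13.5, a fold of 1.47 (1.2 to 1.75), and *Col5a1*, which regulates fibril diameter, had 16.5 and 22.6, a fold of 1.37 (1.3 to 1.5). *Col3a1*, the chain of type III collagen that is usually made beside type I, had 7.10 and 6.79, a fold of 0.956 (0.752 to 1.21). None of the 7 fibrillar chains past the level limit reached 2-fold. Of all genes past it, 11.7% did so higher in the TAG/TAG line and 8.67% in the TAG/+ line. By any amount, 5 of the 7 were higher in the TAG/TAG line, against 49.8% of all genes, and 2 in the TAG/+ line. The median log2 difference of the 7 was 0.45. The other 3 of these 7 (*Col5a2*, *Col5a3* and *Col11a1*) had FPKM between 1.09 and 3.35 in both lines. Under the limit, *Col24a1* had 2 and 34 reads, a fold of 15.8 (4.05 to 136). *Col27a1* had 13 and 41 reads, a fold of 2.93 (1.54 to 5.96). Of all genes under 1 FPKM, 30.8% were past 2-fold higher in the TAG/TAG line.

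Other collagens spread the widest, from a log2 difference of -2.76 to 1.98. *Col26a1* had an FPKM of 3.38 in the TAG/+ line and 12.1 in the TAG/TAG line, a fold of 3.58 (2.60 to 5.03), and *Col13a1*, a transmembrane collagen of adhesion sites, had 1.82 and 7.46, a fold of 4.10 (2.94 to 5.82). *Col6a1*, a chain of the microfibrillar type VI collagen, had 1.24 and 2.98, a fold of 2.41 (1.60 to 3.69), and *Col8a2* had 0.980 and 2.15, a fold of 2.19 (1.35 to 3.66). The other chains of type VI collagen differed from *Col6a1* and from each other. *Col6a2* had 2.65 and 5.26, a fold of 1.99 (1.61 to 2.47), whereas *Col6a3* had 2.31 and 1.75, a fold of 0.758 (0.573 to 0.999). *Col23a1* (chromosome 11, 51289920 to 51583918), a transmembrane collagen, had 2.26 from 76 reads and 0.248 from 9 reads, which is 9.09 times higher in the TAG/+ line (4.54 to 20.6).

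**Figure D2:**
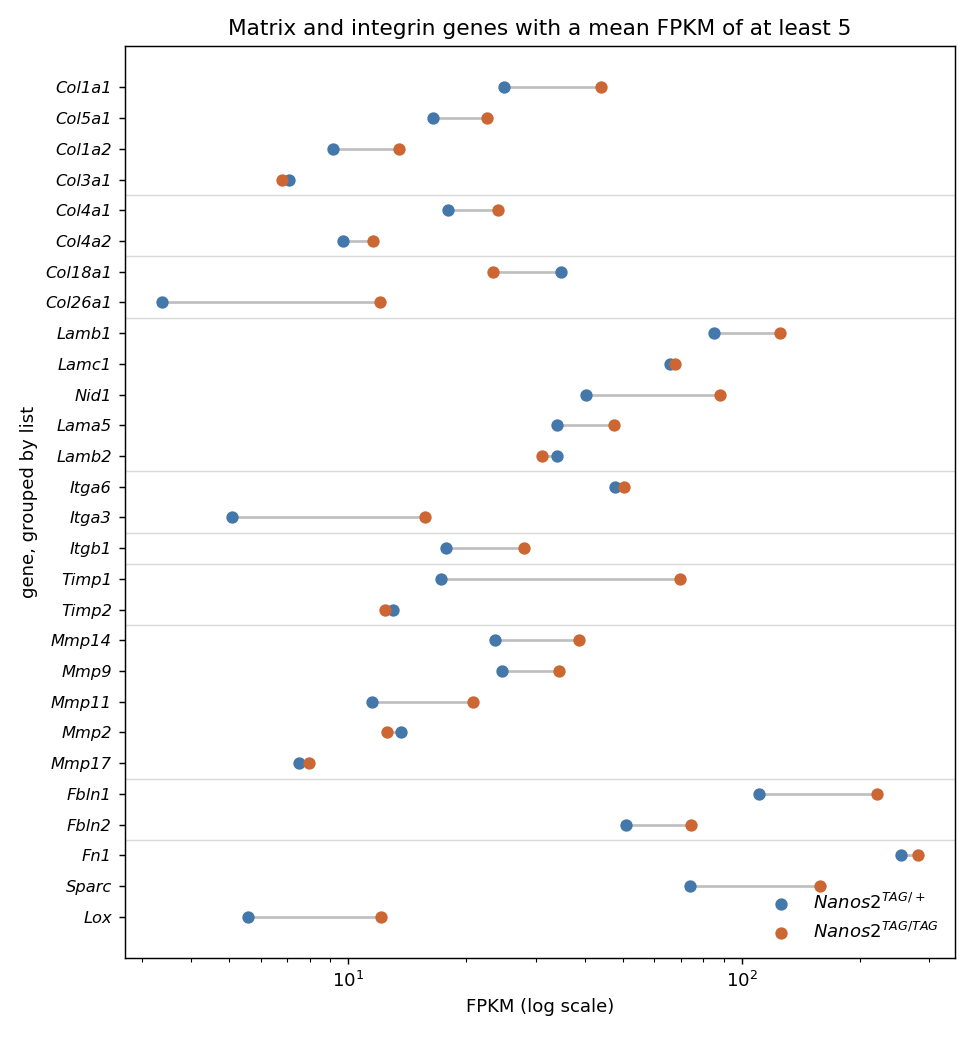
FPKM (x axis, log scale) of the 28 matrix and integrin genes with a mean FPKM of at least 5, in the *Nanos2* TAG/+ library (blue) and the *Nanos2* TAG/TAG library (orange), 1 library per line and no error bars. Grey bars join the libraries and thin lines separate the gene lists. *Timp1* and *Itga3* show wide gaps to the right, *Fn1*, *Lamc1* and *Itga6* almost none, and *Col18a1* a gap to the left.

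Among integrins, the SSC receptor chain *Itga6* differed little between the lines, and several other alpha and beta chains were higher in the TAG/TAG line. *Itga6* (chromosome 2, 71745616 to 71858416) was the most abundant integrin, with an FPKM of 47.8 in the TAG/+ line and 50.2 in the TAG/TAG line, a fold of 1.05 (0.971 to 1.14). Its partner *Itgb1* (chromosome 8, 128685654 to 128733200), the beta chain shared by most matrix receptors, had 17.7 and 28.0, a fold of 1.58 (1.39 to 1.80). *Itga6* therefore stood at 2.69 times the level of *Itgb1* in the TAG/+ line and at 1.79 times in the TAG/TAG line. *Itgb4*, the other partner of alpha 6 and a hemidesmosome chain, had 1.46 and 3.97, a fold of 2.72 (2.04 to 3.66).

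*Itga3* (chromosome 11, 95044474 to 95076801), an alpha chain that pairs with beta 1 to bind laminins, had an FPKM of 5.06 from 150 reads and 15.7 from 499 reads, a fold of 3.09 (2.57 to 3.74). In the TAG/+ line *Itga6* was at 9.44 times the level of *Itga3*, and in the TAG/TAG line at 3.21 times. *Itga9*, a tenascin and osteopontin receptor chain, had 1.40 and 5.89, a fold of 4.20 (2.79 to 6.51). *Itgb3*, the beta chain of vitronectin and fibrinogen receptors, had 1.2 and 4.53, a fold of 3.64 (2.78 to 4.81). Its partner *Itgav*, which also binds fibronectin, had 2.44 and 3.58, a fold of 1.47 (1.06 to 2.04). *Itga2b* (chromosome 11, 102453297 to 102470122), the platelet partner of beta 3, rested on 1 read in the TAG/+ library and 32 in the TAG/TAG library, which correspond to 0.0831 and 2.47 FPKM, a ratio of 29.7 (4.97 to 1211).

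All 10 integrins with a mean FPKM of at least 1 were higher in the TAG/TAG line, against 49.8% of all genes at that level, and 5 of them were past 2-fold, against 11.7%. Their median log2 difference was 1.12. *Itga2b* reached that level only through the TAG/TAG line, and of the 9 integrins with at least 1 FPKM in both lines 4 were past 2-fold, against 7.94% of all genes. For the 46 matrix genes with a mean FPKM of at least 1, 14 were past 2-fold higher in the TAG/TAG line and the median was 0.51, and with at least 1 FPKM in both lines it was 8 of 39. The integrin and matrix counts were not tested against each other. The integrins usually found on blood cells were near the detection limit. *Itgal* had 17 reads in the TAG/+ library and 39 in the TAG/TAG library. *Itgam* had 30 and 5, and 68.7% of its annotated exon bases were shared with another gene model.

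The enzymes that cut matrix and their inhibitors included 1 of the widest gaps at high level. *Timp1* (chromosome X, 20870166 to 20874735), a secreted inhibitor of metalloproteinases, had an FPKM of 17.2 from 161 reads in the TAG/+ line and 69.8 from 703 reads in the TAG/TAG line, a fold of 4.06 (3.41 to 4.85). The other inhibitors did not share this gap. *Timp2* had 13.0 and 12.4, a fold of 0.956 (0.816 to 1.12), and *Timp3* had 2.61 and 3.14, a fold of 1.20 (0.858 to 1.69). *Timp3* shares 21.3% of its exon bases with *Syn3* on the opposite strand, and whether strand was used in counting is not given in the sources used here.

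Of the metalloproteinases, 3 of the 10 with a mean FPKM of at least 1 were past 2-fold higher in the TAG/TAG line, against 11.7% of all genes. All 3 were under 1 FPKM in the TAG/+ line and reached the limit only through the TAG/TAG line, and of the 7 with at least 1 FPKM in both lines none was past 2-fold, against 7.94% of all genes. *Mmp19* had an FPKM of 0.873 and 2.95, a fold of 3.37 (2.01 to 5.94), and 22.3% of its exon bases were shared with *Tmem198b* on the opposite strand. *Mmp16* had 0.761 and 2.01, a fold of 2.65 (1.57 to 4.65), and *Mmp23* had 0.800 from 8 reads and 1.77 from 19 reads, a fold of 2.21 (0.923 to 5.83). The interval of *Mmp23* holds 1, so that difference was not detectable at this depth.

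The abundant metalloproteinases differed less. *Mmp14*, the membrane-bound enzyme that activates *Mmp2*, had 23.7 and 38.7, a fold of 1.63 (1.43 to 1.86), and the gelatinase *Mmp9* had 24.6 and 34.3, a fold of 1.40 (1.22 to 1.60). *Mmp11* had 11.5 and 20.7, a fold of 1.80 (1.46 to 2.24). The fibroblast gelatinase *Mmp2* had 13.7 and 12.6, a fold of 0.921 (0.758 to 1.12), and *Mmp17* had 7.52 and 7.95, a fold of 1.06 (0.900 to 1.24). *Mmp14* and *Mmp9* thus stood higher in the TAG/TAG line and *Mmp2* did not.

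**Figure D3:**
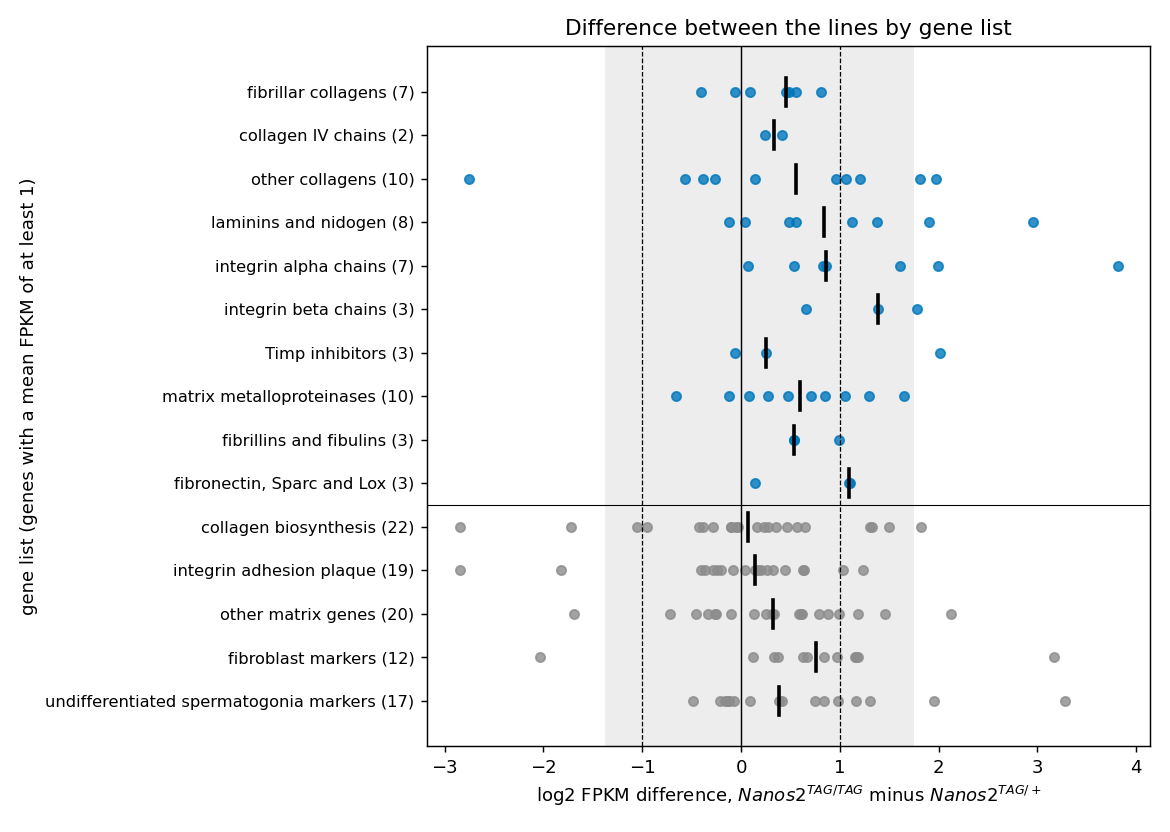
Log2 FPKM difference between the lines, *Nanos2* TAG/TAG minus *Nanos2* TAG/+ with a pseudocount of 0.1 (x axis), for genes with a mean FPKM of at least 1 in each list (y axis, number of genes in parentheses). Each point is a gene, blue for matrix and integrin genes and grey for comparison lists, black bars are medians, dashed lines mark 2-fold, and the shaded band spans the 5th to 95th percentile of all genes (-1.37 to 1.74). The medians of the blue lists run from 0.26 (Timp inhibitors) to 1.38 (integrin beta chains, 3 genes). Those of the integrin alpha chains (0.86), laminins and nidogen (0.84), and *Fn1*, *Sparc* and *Lox* (1.09) also lie to the right of that of the fibrillar collagens (0.45).

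Markers of the cultured cells and of the feeders were compared between the same libraries. Undifferentiated spermatogonia markers were present in both lines, with 17 of the 18 listed genes measured, none at 0 and all with a mean FPKM of at least 1. They summed to 980 FPKM in the TAG/+ line and 1509 in the TAG/TAG line. Of these, 4 were past 2-fold higher in the TAG/TAG line, against 11.7% of all genes, and none in the TAG/+ line, against 8.67%. The median log2 difference of these markers was 0.38. The 3 highest were *Sall4* (214 and 192), *Tex101* (148 and 157) and *Ret* (73.2 and 181).

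Fibroblast markers were also present in both libraries, at lower levels. Of 20 listed genes 15 were measured, none at 0, and they summed to 104 FPKM in the TAG/+ line and 204 in the TAG/TAG line. Of the 12 with a mean FPKM of at least 1, 4 were past 2-fold higher in the TAG/TAG line, against 11.7% of all genes. In the TAG/+ line 1 was past 2-fold higher, against 8.67%, and the median log2 difference of the 12 was 0.75. The 3 highest were *Vim* (30.3 and 67.9), *Axl* (22.8 and 44.8) and *Thy1* (15.7 and 35.2), although *Thy1* is also displayed by SSCs. By any amount, 11 of the 12 were higher in the TAG/TAG line, against 49.8% of all genes, and 1 (*Twist2*) in the TAG/+ line. The log2 differences of the 12 ranged from -2.04 for *Twist2* to 3.17 for *Pdgfrb*. The median was 0.51 for the matrix genes without integrins and 0.38 for the undifferentiated spermatogonia markers. Of the 46 matrix genes without integrins with a mean FPKM of at least 1, 36 were higher in the TAG/TAG line by any amount. That compares with 49.8% of all genes, and 10 of the 46 were higher in the TAG/+ line. The part of fibroblasts in the matrix differences was not tested.

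Markers of other testis cells had low sums. Sertoli cell markers, with 5 of 9 measured, summed to 8.19 FPKM in the TAG/+ line and 29.7 in the TAG/TAG line, most of it *Wt1* (2.51 and 19.6). The Leydig cell list was represented by *Star* alone (4.62 and 1.20) and the macrophage list by *Cd68* alone (2.80 and 10.2). Peritubular myoid cell markers (2 of 5 measured) summed to 42.8 and 31.6, nearly all of it *Ptch1*, and endothelial markers (4 of 6) to 10.7 and 10.3, with *Cdh5* at 0 in the TAG/+ line. Of 6 markers of differentiating spermatogonia, none was past 2-fold higher in the TAG/TAG line, against 11.7% of all genes. In the TAG/+ line 1 was, against 8.67%, and the median log2 difference of the 6 was -0.44. The part of these cells in the matrix differences was not tested.

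Genes that work with the matrix proteins were taken from lists chosen with earlier results of these data known. Of 22 genes for collagen synthesis and folding with a mean FPKM of at least 1, 4 were past 2-fold higher in the TAG/TAG line and 3 in the TAG/+ line, and the median log2 difference was 0.07. The highest was *P4hb*, a subunit of prolyl 4-hydroxylase, with 445 and 366. Of 19 genes of the adhesion plaque that ties integrins to actin, 2 were past 2-fold in each direction and the median was 0.15, with *Actn4* (141 and 192) as the highest. Among 20 other matrix genes, 3 were past 2-fold higher in the TAG/TAG line and 1 in the TAG/+ line with a median of 0.32, and the highest was *Nid2* (231 and 253), the paralogue of *Nid1*. None of these 3 medians was as high as that of the matrix and integrin genes (0.55). Of all genes with a mean FPKM of at least 1, 11.7% were past 2-fold higher in the TAG/TAG line and 8.67% in the TAG/+ line.

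Most matrix and integrin mRNAs with a half-life lived longer than the median transcript in both lines. A half-life is the time after which 0.5 of the 4SU-labelled RNA of a gene is left during the chase. The median over the 21 matrix and integrin mRNAs was 376 min in the TAG/+ line and 494 min in the TAG/TAG line, against 224 and 226 min for all 5806 transcripts. Half-lives above the third quartile of all transcripts (289 and 300 min) were found for 14 of the 21 in the TAG/+ line and 16 in the TAG/TAG line. The half-lives come without an error or a read depth. Abundant mRNAs tended to live longer in these tables, so levels were also matched. Of the transcripts with an FPKM between 20 and 100, the median was 233 and 235 min, and for the 10 matrix and integrin mRNAs in that range it was 401 and 483 min.

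The longest half-lives belonged to mRNAs of secreted proteins, given here by their order in the TAG/+ line. *Sparc* had 950 min in the TAG/+ line and 1440 min in the TAG/TAG line, the latter at the last chase time. *Col1a2* had 786 and 899 min, *Fn1* 678 and 745 min, *Lox* 606 and 698 min, and *Col1a1* 562 and 597 min. *Col4a1* had 534 and 641 min, and the inhibitor *Timp2* had 521 and 569 min. These transcripts lay at or above the 95th percentile of all transcripts in both lines, and 5 of them exceeded 540 min in both lines, which 164 of all 5806 transcripts did. *Col18a1* had 443 and 800 min, *Timp1* 434 and 494 min and *Nid1* 426 and 571 min.

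The 4 integrin mRNAs with a half-life differed among themselves. *Itgb1* had 376 min in the TAG/+ line and 472 min in the TAG/TAG line. *Itga6* had 227 and 266 min, close to the median transcript. *Itga3* had 164 and 162 min, and *Itgav* had 101 and 234 min. The chains of the SSC receptor therefore differed in half-life in each line, with *Itgb1* above *Itga6*, while in FPKM *Itga6* was above *Itgb1*. The 3.09-fold gap in *Itga3* FPKM between the lines stood beside a half-life ratio of 0.987.

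**Figure D4:**
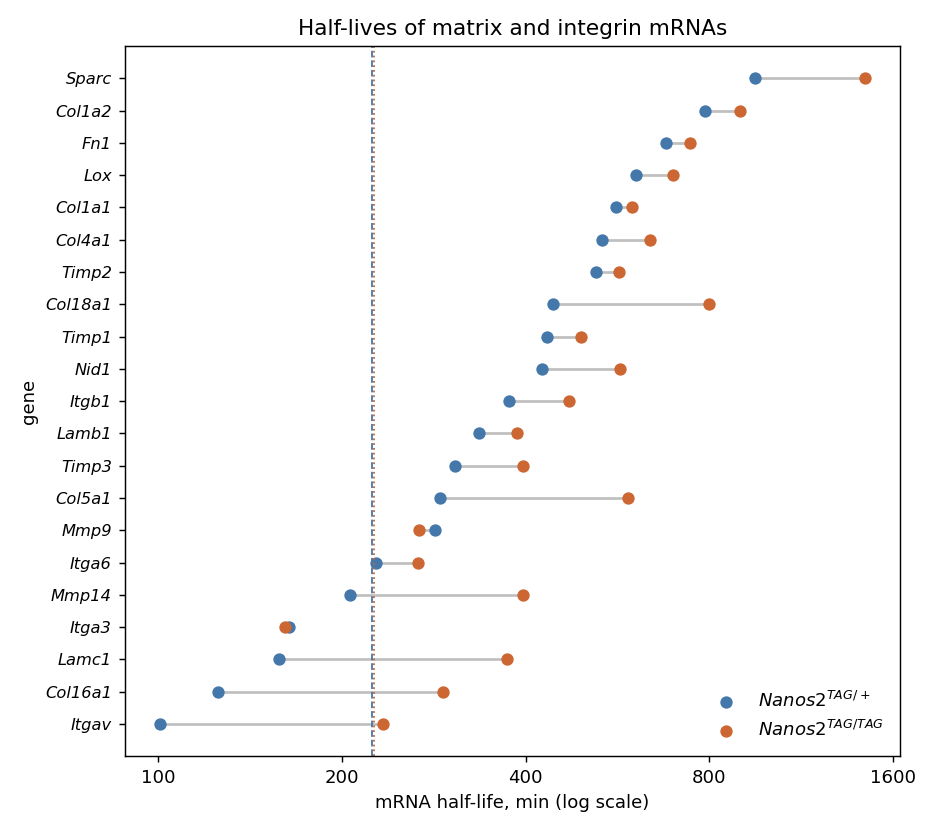
mRNA half-life in min (x axis, log scale) of the 21 matrix and integrin genes with a value (y axis, ordered by the TAG/+ line), in the *Nanos2* TAG/+ line (blue) and the *Nanos2* TAG/TAG line (orange), with 1 value per line fitted by the authors and no error bars. The vertical lines are the medians of all transcripts, 224 min (dashed) and 226 min (dotted). Of the 21 genes, 19 have the orange point to the right of the blue one.

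Nearly all of these half-lives were longer in the TAG/TAG line. This held for 19 of the 21 mRNAs (90.5%), against 54.1% of all transcripts, and the exceptions were *Itga3* and *Mmp9* (284 and 268 min). Past 1.5-fold, 7 of the 21 (33.3%) were longer in the TAG/TAG line, against 10.0% of all transcripts, and none was longer in the TAG/+ line, against 10.7%. No test was run on these counts, since there is 1 line per genotype, and the study used these lines as 2 replicates of the half-life measurement. The median ratio of the TAG/TAG to the TAG/+ half-life was 1.20 for the 21 mRNAs and 1.03 for all transcripts.

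The 7 mRNAs past 1.5-fold were *Lamc1* (158 and 373 min, 2.36-fold), *Col16a1* (125 and 293 min, 2.33-fold), *Itgav* (2.32-fold), *Col5a1* (289 and 588 min, 2.03-fold), *Mmp14* (206 and 396 min, 1.92-fold), *Col18a1* (1.81-fold) and *Sparc* (1.52-fold). *Col16a1* had only 18 reads in the TAG/+ and 15 in the TAG/TAG RNA-seq library. Of the 5 matrix and integrin mRNAs under the TAG/+ median, 4 were past 1.5-fold longer in the TAG/TAG line, and of the 16 above it 3 were. Over all transcripts these shares were 15.3% below and 4.82% above that median. The sizes of the FPKM fold and of the half-life ratio did not always match, in examples chosen after the values were seen. *Lamc1* had the largest half-life ratio with a fold of 1.03 in FPKM, *Col18a1* had a longer half-life and a lower FPKM in the TAG/TAG line, and *Timp1* had a half-life ratio of 1.14 with a fold of 4.06 in FPKM. The remaining 2 mRNAs, *Lamb1* (335 and 388 min) and *Timp3* (306 and 396 min), had ratios of 1.16 and 1.29.

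NANOS2 is known from the study to bind the 7-base motif AUKAAWU in 3′ UTRs, where K is G or U and W is A or U, so the annotated 3′ UTRs were searched for its 4 spellings ATGAAAT or ATGAATT or ATTAAAT or ATTAATT on the sense strand. The spelling ATTAATT reads the same on both strands. Of the 73 genes, 26 (35.6%) had at least 1 match in the 3′ UTR of the transcript chosen per gene (GENCODE M21), against 38.7% of 13090 genes. Among the 21 with a half-life 6 had a match (28.6%), against 41.8% of genes with a half-life, at 0.321 and 0.487 matches per kilobase. The SSC receptor chains *Itga6* (3′ UTR of 927 bases) and *Itgb1* (1112 bases) had none, and of genes with 3′ UTRs within 10% of these lengths 31.6% and 33.6% had a match. Of the 7 mRNAs past 1.5-fold in half-life 3 had a match, namely *Itgav*, *Lamc1* and *Col5a1*, and of the other 14 also 3. A match is a stretch of letters and not a measured site of NANOS2 binding.

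The matches of *Itgav*, *Lamc1* and *Col5a1* are shown because these mRNAs had the largest half-life ratios among the genes with a match, and that of *Col4a1* as an example from an mRNA that was long-lived in both lines. They are in the last exon, as in GRCm38, 5′ to 3′ on the strand of the gene, with the match in capitals. Of 3′ UTRs within 10% of the same length, 73.2% (*Itgav*), 65.3% (*Lamc1*), 64.1% (*Col5a1*) and 43.8% (*Col4a1*) held a match.
*Itgav*, exon 30, chr2:83805244-83805272, plus strand: cctgaaaatcaATGAAATtcattctttgt
*Lamc1*, exon 28, chr1:153220051-153220079, minus strand: acactggtgctATTAATTatttgaaattt
*Lamc1*, exon 28, chr1:153219170-153219198, minus strand: tattttatgtaATGAAATggacagaatgg
*Col5a1*, exon 66, chr2:28037882-28037910, plus strand: cacaggcttaaATTAATTctgattgcttc
*Col4a1*, exon 52, chr8:11199511-11199539, minus strand: tccaataaaagATGAATTgcattttgcaa

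Promoters were looked at for the genes that were higher together in the TAG/TAG line. RefSeq promoter sequences (GRCm38.p6, 250 bases before to 50 bases after the start) were matched by symbol for 52 of the 73 genes, 11 of them past 2-fold higher in the TAG/TAG line. The pattern TGANTCA reads the same on both strands and includes TGACTCA and TGAGTCA, the sites recognised by AP-1 factors. It was in a start window of 3 of these 11 genes (*Itga3*, *Itga9* and *Col6a1*) and of 1 of the other 41 (*Mmp12*). The *Itga3* match, TGAATCA, is neither of these AP-1 sites. Counted from the 5′ end of the gene in GENCODE M21, the *Col6a1* match lies 34 bases inside it. Those of *Itga3*, *Itga9* and *Mmp12* lie 7615, 105040 and 2949 bases inside, at internal RefSeq starts. Of all 10010 genes with a promoter sequence, 5.94% had a match. The GC box GGGCGG, on either strand, was in 5 of the 11 and in 33 of the other 41, against 67.4% of all genes. The 3 matches of TGANTCA in the 11 genes are given on the strand of the gene, with the match in capitals. They are matches of letters only, and binding of AP-1 factors was not measured.
*Itga3*, internal start, chr11:95069169-95069197, minus strand: gggctggtgccTGAATCActggcttgctc
*Itga9*, internal start, chr9:118711719-118711741, plus strand: gcagactggtcTGACTCAaggag
*Col6a1*, gene start, chr10:76726117-76726145, minus strand: tgctgatgctgTGACTCActcagctttga

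A further 17 of the 73 genes had a mean FPKM under 1, from at most 46 reads in the TAG/+ and 137 in the TAG/TAG library. Of these, 8 were past 2-fold higher in the TAG/TAG line, against 30.8% of all genes under 1 FPKM, and 2 (*Col7a1* and *Itgam*) in the TAG/+ line, against 18.1%. Over all 73 genes, the interval of the fold lay wholly above 1 for 48, wholly below 1 for 5 and held 1 for 20. Of all genes, 34.8% had an interval wholly above 1 and 33.6% wholly below. Exon bases were shared with another gene of the table by 8 of the 73, and by over 10% of exon bases by 3 (*Timp3*, *Mmp19* and *Mmp24*).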

How the data were processed

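RNA-seq and SLAM-seq tables of 2 SSC lines were used. The FPKM values were computed and deposited by the authors (1 library per line), and the submitters' processing notes name kallisto and DESeq2 for them, with versions not given in the sources used here. The half-lives, in min, were deposited by the authors as 1 value per transcript and line, from SlamDunk conversion rates normalized to the start of the chase, with technical replicates collapsed and a first-order decay fitted by nls. Half-lives therefore carry no error, and values past the last chase time (1440 min) are extrapolated. The 4 CRAC libraries were not analysed here.

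Whole reads were recovered as FPKM times the mean transcript length in GENCODE M21 and a depth found from the lowest values (10908790 and 11738620). On simulated reads this recovered 100% of 13867 genes. Log2 differences used a pseudocount of 0.1. Calls needed 2-fold at a mean FPKM of at least 1, or 1.5-fold in half-life. With 1 library per line no test was run, and intervals cover counting error only. For each gene, the 3′ UTR of 1 transcript was used, from the APPRIS principal transcript or else from that with the longest 3′ UTR.

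Genes named were those with a mean FPKM of at least 5, those past 2-fold with a mean of at least 1, those with a half-life, *Itga6*, *Itgb1*, *Itgav*, *Fn1*, *Sparc*, *Lox* and *Nid1*, and up to 3 of each comparison list by mean FPKM. Others were named after their values were seen, and 1 item is not reported here. The genes, lists and limits were chosen with earlier results of these data known. Alternatives were another pseudocount, other limits of level and fold, centring, and scaling to total reads. Python 3.11.15, numpy 2.4.6, pandas 2.3.3, scipy 1.17.1 and matplotlib 3.10.9 were used.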

Additional observations from a re-analysis of the deposited data

How the results depend on the processing

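The count of matrix and integrin genes past 2-fold higher in the TAG/TAG line was 19. It was 12 with a pseudocount of 1, 6 among the 28 genes with a mean FPKM of at least 5, 3 at 4-fold, and 12 with an FPKM of at least 1 in both lines, the last chosen after seeing the data. Over all genes, the share past 2-fold higher in the TAG/TAG line was 8.53% with a pseudocount of 1, 6.77% at a mean FPKM of at least 5, and 3.79% past 4-fold. Without a limit on FPKM the count was 27 of 73, against 13.5% of all genes. The count higher in the TAG/+ line was 1, and it was 3 without a limit, where 9.59% of all genes were, 2 at 1.5-fold, where 18.6% were, 0 at a mean FPKM of at least 5, where 5.65% were, and 0 with an FPKM of at least 1 in both lines, where 6.52% were. Both limits that gave 0 left out *Col23a1*. The median log2 difference of 0.55 ranged from 0.51 to 0.66 over its alternatives, and no median of a list changed sign. Scaling to total reads shifted all log2 differences by 0.02. At 2-fold instead of 1.5-fold, 4 half-lives were longer in the TAG/TAG line, where 3.05% of all transcripts were. The share of the 73 genes was 0.297% and 0.418% of reads in place of 0.138% and 0.216% of FPKM, since reads also count transcript length. The half-life medians of 376 and 494 min were 430 and 570 min at a mean FPKM of at least 5, and 355 and 483 min with half-lives up to 1440 min. Leaving out integrin-binding proteins left them as they were, since none was among the 21 genes. No paired analysis was possible because each line has 1 RNA-seq library and 1 half-life per transcript. Reads limit genes under 1 FPKM.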

Other observations

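Of the 22 genes for collagen synthesis and folding with a mean FPKM of at least 1, 11 (50%) were higher in the TAG/TAG line. This is close to the 49.8% of all genes, and the other 11 were higher in the TAG/+ line. The following were chosen after their values were seen. The catalytic prolyl 4-hydroxylase chain *P4ha1* had an FPKM of 23.9 in the TAG/+ line and 7.19 in the TAG/TAG line, which is 3.33 times higher in the TAG/+ line (counting interval 2.90 to 3.84). The prolyl 3-hydroxylases *P3h1* (21.1 and 10.2) and *P3h3* (9.15 and 1.19) were also higher in the TAG/+ line, by 2.08 times (1.75 to 2.47) and 7.70 times (4.75 to 13.2), and the lysyl hydroxylase *Plod2* had 52.9 and 27.3. Its paralogues *Plod1* (94.2 and 105) and *Plod3* (21.3 and 25.7) and the collagen galactosyltransferase *Colgalt1* (53.9 and 74.3) were higher in the TAG/TAG line. Several genes for the extracellular trimming of procollagen were also higher there. The proteinase *Bmp1* had 2.0 and 7.34, a fold of 3.67 (2.78 to 4.91), its enhancer *Pcolce* had 8.89 and 25.3, a fold of 2.85 (2.26 to 3.62), and *Adamts14* had 2.10 and 5.34, a fold of 2.55 (2.02 to 3.23). *Adamts2*, the other procollagen N-proteinase listed, had 2.70 and 2.65, a fold of 0.981 (0.701 to 1.37).

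*Serpinh1*, the collagen chaperone HSP47, had a half-life of 118 min in the TAG/+ line and 564 min in the TAG/TAG line, a ratio of 4.76 that is larger than that of any collagen chain measured here, while its FPKM was 22.6 and 33.4. Among fibroblast markers, *Pdgfrb* had 0.660 and 6.75 FPKM, a fold of 10.2 (7.36 to 14.6), whereas *Pdgfra* had 4.21 and 4.59.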
